A study of Saccharomyces cerevisiae with 8 samples.

Results

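The subject of these measurements is the total change in mRNA levels between wild-type Saccharomyces cerevisiae and the triple mutant ncs2∆elp6∆hel2∆, in which U34 tRNA modification and ribosome-associated quality control were lost together. The libraries were chosen by strain: the 2 of ncs2∆elp6∆hel2∆ and the 2 of wild type, which are 4 of the 8 libraries of the series. The other 4 came from hel2∆ and from ncs2∆elp6∆, 2 each, and served to place the total change beside its components. All strains were given as BY4741 derivatives of mating type MATa carrying his3∆1, leu2∆0 and ura3∆0. Wild type also carried met15∆0. The triple mutant had HIS3MX in place of NCS2, URA3 in place of ELP6 and LEU2 in place of HEL2. The same replacements were listed for ncs2∆elp6∆ (the first pair) and for hel2∆ (the last), and met15∆0 was listed for no mutant. No treatment is listed. Cells were grown in YPD at 30 °C, and poly(A) RNA was sequenced. Of 6337 genes in the table, 6087 were tested. The study calls its replicates biological, but the labels do not say that the 2 libraries of a strain came from separate cultures. The p-values measure the spread between these libraries, and the labels do not say whether each mutant was a single clone.

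Uridine at the wobble position 34 of the tRNAs that read AAA, CAA and GAA carries a side chain built by the Elongator complex, of which Elp6 is a subunit, and a sulfur atom transferred by the Urm1 pathway, in which Ncs2 acts. Without these groups the tRNAs decode their codons slowly and proteins aggregate. Hel2 is the E3 ubiquitin ligase that recognises collided ribosomes and marks them for ribosome-associated quality control (RQC), which splits the ribosome and degrades the nascent chain. Transcription factors that answer such disturbances in yeast include Hsf1, which drives chaperone genes, Msn2 and Msn4, which drive general stress genes, Rpn4, which drives proteasome genes, and Gcn4, which drives amino acid synthesis.

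The 8 libraries held between 13252947 and 23941037 counts, and replicates of a strain correlated across genes with Pearson's r between 0.990 and 0.994 (log2 CPM, where CPM are a gene's counts relative to the library total after scaling for composition by TMM). The deleted genes followed the labels: in the triple mutant HEL2 kept 0 and 1 counts, from 1893 and 1246 in wild type, NCS2 0 and 3, from 713 and 582, and ELP6 0 and 1, from 1338 and 904. MET17, the gene deleted by met15∆0, stood at 5918 and 6651 counts in the triple mutant against 6 and 1 in wild type, and hel2∆ had 0 counts of it in both libraries although its labels list no such deletion. HIS3 stood at 141 and 147 CPM in wild type and 272 and 249 CPM in the triple mutant. LEU2 and URA3 were not analysed here. Besides the 3 deletions the triple mutant thus differed from wild type in MET17 and in the markers HIS3MX, URA3 and LEU2, and between these 2 strains the effects of marker and deletion cannot be told apart. Of 7 MATa-specific genes, 5 were called lower in the triple mutant, although all 7 were detected, and of 4 genes specific to the other mating type 1 was called higher, STE3, which went from 5.32 and 5.83 to 9.11 and 8.84 CPM and lost its call in 5 of 11 alternatives, among them the exclusion of any 1 of the 4 libraries. Both triple-mutant libraries were tilted toward GC-rich genes. Spearman's rho across 5647 genes between the GC content of the coding sequence and the deviation of a library from the mean of all 8 was 0.205 and 0.376 for the triple mutant, -0.036 and 0.008 for wild type, and -0.051 and -0.417 for ncs2∆elp6∆.

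The triple mutant differed from wild type in 1820 of 6087 genes (29.9%) at an adjusted p under 0.05 by edgeR's quasi-likelihood test, and such genes are referred to as called. Of these, 910 were higher (14.9%) and 910 lower (14.9%) in the triple mutant. These shares are the background for the counts of gene lists below. Most changes were small: 53.1% of the called genes had an absolute log2 fold change under 0.5, and the median absolute value of called genes was 0.48. Past a log2 fold change of 1 in either direction stood 235 genes (3.86%), with 133 higher (2.18%) and 102 lower (1.68%). Above 2 there were 32 genes and below -2 there were 20. The libraries of the 2 strains did not overlap for any called gene, beside 66.8% of all genes tested. Leaving out 1 library reduced the count of called genes, to 873 without triple-mutant replicate 1, 1062 without wild-type replicate 2, 1297 without triple-mutant replicate 2 and 1470 without wild-type replicate 1. With library totals in place of composition scaling the median of all genes moved from 0.005 to 0.051, and the called genes became 1071 higher and 695 lower.

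**Figure D1:**
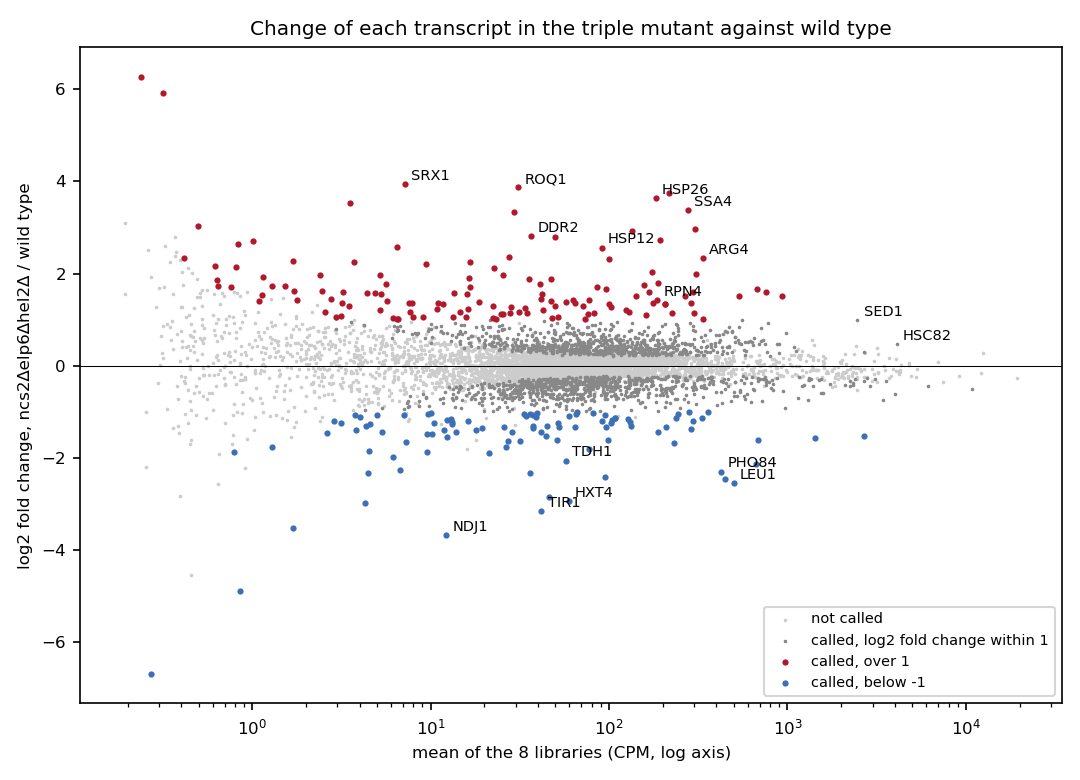
Change of every tested gene in the triple mutant. The x axis is the mean CPM of the 8 libraries on a log axis and the y axis the log2 fold change of ncs2∆elp6∆hel2∆ against wild type; each point is a gene, red and blue points are the 133 and 102 genes called past 1 in either direction, and NCS2, ELP6, HEL2 and MET17 are left out. Named stress and arginine genes lie at the top at intermediate abundance, while the extreme points at the far left have means near or under 1 CPM and rest on few counts.

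Among the 12 largest rises of well-measured genes without near-identical copies were SRX1, ROQ1, BTN2, HSP26, SSA4, TMA10, SSA3, DDR2, HSP30, HSP42 and MNC1 (YBR056W-A). Chaperone and stress genes made up 10 of them, and MNC1 had 1.88 and 2.33 CPM in wild type and 12.3 and 12.7 CPM in the triple mutant. The 12 largest falls by the same criteria were NDJ1, TIR1, HXT4, SPL2, LEU1, URA1, OAC1, WSC4, PHO84, YDR537C, MRH1 and TDH1. They include genes of the cell wall, phosphate uptake, leucine and pyrimidine synthesis and sugar metabolism. Of the 133 genes called above 1, 59 belong to at least 1 of 43 gene lists written for these data (44.4%), as do 34 of the 102 genes called below -1 (33.3%) and 1094 of all 6087 genes tested.

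The list of small heat shock proteins, sequestrases and disaggregases, most of which bind or extract misfolded proteins, rose without exception. All 8 members that passed the filter on low counts, of 9 in the table, were called higher and 7 passed a log2 fold change of 1, with a median of 2.65 beside 0.005 over all genes. HSP26, a small heat shock protein that holds unfolded proteins, had 42.7 and 53.1 CPM in wild type and 627 and 556 CPM in the triple mutant. This is a log2 fold change of 3.63 ± 0.12 (SE), or 12.4-fold (adjusted p = 4.69e-08, edgeR). HSP42, which gathers misfolded proteins into cytosolic deposits, went from 74.2 and 85.9 to 565 and 494 CPM, with a log2 fold change of 2.73 ± 0.10. BTN2, a sequestrase, went from 53.7 and 40.7 to 686 and 583 CPM, a log2 fold change of 3.74 ± 0.15. The triple-mutant libraries of all 3 genes lay far above the wild-type libraries. The disaggregase HSP104 started from a higher level, 489.9 and 464 CPM, and reached 1491 and 1416 CPM, 3.05-fold more. HSP12, a small membrane-associated stress protein, had 35.9 and 43.1 CPM in wild type and 238 and 227 CPM in the triple mutant. HSP30, of the plasma membrane, went from 16.6 and 21.2 to 123 and 137 CPM. CUR1, a relative of BTN2, showed the smallest rise of the list, 0.74 on the log2 scale.

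The promoter stretches of 2 of these genes show the motifs by which they are usually recognised. They are given 5′ to 3′ on the strand of the gene, from the RefSeq assembly R64, with motif letters in capitals, as are all stretches below. CCCCT (and AGGGG, its other strand) is the stress response element of Msn2 and Msn4, and GAANNTTC is a minimal heat shock element of Hsf1. The stretches lie at chrII:381530-381649, plus strand, and chrIV:806356-806475, plus strand, between 100 and 500 bases before the coding start.
HSP26: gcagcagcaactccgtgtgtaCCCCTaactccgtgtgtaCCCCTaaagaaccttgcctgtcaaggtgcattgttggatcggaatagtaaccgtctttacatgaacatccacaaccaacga
HSP42: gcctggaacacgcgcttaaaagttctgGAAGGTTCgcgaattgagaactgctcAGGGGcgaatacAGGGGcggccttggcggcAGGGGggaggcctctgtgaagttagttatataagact
Within 500 bases before the coding start, HSP26 held 3 stress response elements and no match to the minimal heat shock element in this spelling, and HSP42 held 3 and 1. CCCCT was found on either strand in 34.5% of 5647 promoters, in 48.3% of 120 promoters of genes called above 1 and in 23.9% of 88 of those called below -1. GAANNTTC was found in 19.2%, 24.2% and 19.3%, respectively. Of 8 small heat shock protein promoters, 5 held CCCCT and 4 held GAANNTTC, and the genes with a match did not have the higher medians: the median log2 fold change was 2.56 with CCCCT and 2.79 without it, and 2.17 with GAANNTTC and 2.68 without it. Each motif was searched on its own, so that matches of different motifs may overlap, and a match describes letters, not an occupied site.

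Among cytosolic Hsp70 and Hsp110 genes, the stress-inducible members rose most. Of 12 members, 6 were called higher and 2 lower, with a median of 0.27. SSA4, an Hsp70 induced by heat, had 79.4 and 79.9 CPM in wild type and 816 and 838 CPM in the triple mutant, 10.4-fold more (log2 fold change 3.38 ± 0.07, adjusted p = 1.08e-08, edgeR). SSA3, its close relative, went from 51.00 and 44.5 to 361 and 362 CPM (7.55-fold). The replicates of both genes were tight and the strains far apart. SSE2, an Hsp110 nucleotide exchange factor, went from 66.8 and 65.3 to 213 and 206 CPM, and FES1, another exchange factor, went from 137 and 125 to 319 and 340.0 CPM. The constitutive SSA1 and SSA2 rose by less, with log2 fold changes of 0.54 and 0.30. SSB1 and SSZ1, which act at the ribosome exit, were the 2 called lower, with log2 fold changes of -0.29 and -0.32. SSA1 and SSA2, and SSB1 and SSB2, have near-identical coding stretches, so the split of reads within each pair is uncertain.

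Other chaperone families contributed single genes. Of 14 Hsp90 and co-chaperone genes, 5 were called higher and none lower. HSP82, the inducible Hsp90, had 617 and 549 CPM in wild type and 1742 and 1609 CPM in the triple mutant (2.87-fold), while the constitutive HSC82 went from 3589 and 3170 to 4841 and 4533 CPM, a call lost without wild-type replicate 2 or triple-mutant replicate 1. Among 11 J-domain proteins, 3 were called higher (27.3%) and 1 lower (9.09%). Of these, APJ1 alone passed 1, rising from 30.7 and 30.7 to 66.7 and 74.8 CPM. Among 10 mitochondrial chaperones, HSP78, a matrix disaggregase, rose from 158 and 154 to 618 and 622 CPM, and MDJ1, a matrix J-domain protein, rose by 1.09 ± 0.08 on the log2 scale. Of 8 TRiC/CCT chaperonin subunits, CCT3 and CCT4 were called higher with log2 fold changes of 0.40 ± 0.07 and 0.25 ± 0.08, and the call of CCT4 was lost under 8 of 11 alternative settings or exclusions. Folding genes of the endoplasmic reticulum had a negative median, -0.17. Of 18 members, 3 were called higher (16.7%) and 7 lower (38.9%), beside 14.9% each way over all genes. ERJ5 and EUG1, a J-domain protein and a disulfide isomerase of that compartment, had log2 fold changes of -0.75 ± 0.11 and -0.68 ± 0.09. Of 18 core targets of Hsf1, which overlap the lists above, 16 were called higher, with a median of 0.68.

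General stress genes, many of them Msn2 and Msn4 targets, were split. Of 40, 20 were called higher and 4 lower, 11 passed 1 upward and the median was 0.48. ROQ1 (YJL144W), which redirects the ubiquitin ligase Ubr1 to misfolded proteins under stress, had 6.78 and 6.06 CPM in wild type and 91.1 and 98.1 CPM in the triple mutant, 14.6-fold more (adjusted p = 4.69e-08, edgeR). TMA10, a ribosome-associated stress protein, went from 8.66 and 8.62 to 98.5 and 76.2 CPM. DDR2, induced by DNA damage and many other stresses, went from 14.03 and 16.8 to 128 and 89.02 CPM, so its triple-mutant replicates differed more than those of most genes named, without reaching the wild-type libraries. SPI1, a cell wall stress protein, went from 21.5 and 23.6 to 76.8 and 87.96 CPM, and NQM1, a transaldolase, from 12.4 and 8.70 to 51.5 and 40.8 CPM. YGP1 lay at the other end, with a log2 fold change of -1.22. Of 20 trehalose and glycogen genes, which often move with the general stress genes, 2 were called higher and 7 lower, and GPH1, glycogen phosphorylase, went from 57.5 and 65.9 to 26.9 and 30.2 CPM. Of the 40 general stress promoters 37 held CCCCT, with a median log2 fold change of 0.49 in these genes and of -0.33 in the others.

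Oxidative stress enzymes included SRX1, the largest rise among called genes without copies and with a mean of at least 5 CPM. Of 34 members, 7 were called higher (20.6%) and 5 lower (14.7%), beside 14.9% each way over all genes, and 3 passed 1. SRX1, the sulfiredoxin that repairs peroxiredoxins, went from 0.626 and 2.49 CPM to 23.9 and 20.5 CPM. Its log2 fold change of 3.95 ± 0.48 has a wide error, and wild type had few counts (adjusted p = 0.000359, edgeR). OYE3, an NADPH oxidoreductase, went from 7.77 and 10.02 to 45.4 and 38.6 CPM, and CTT1, the cytosolic catalase, from 32.2 and 34.03 to 88.3 and 86.3 CPM. TRX1, a thioredoxin, lay lowest with a log2 fold change of -0.77.

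Most proteasome genes rose by modest amounts. Of 35, RPN4 included, 24 were called higher and 2, PRE7 and RPN5, lower, with a median of 0.45. RPN4, the transcription factor of these genes and itself a short-lived proteasome substrate, passed 1 with 126 and 111 CPM in wild type and 316 and 318 CPM in the triple mutant (2.68-fold, adjusted p = 5.82e-06, edgeR). RPT2 and RPT4, ATPases of the regulatory particle, had log2 fold changes of 1.00 and 0.85, and PRE3, a catalytic subunit, 0.86. The promoter of RPT3, an ATPase with a log2 fold change of 0.74, is shown for the element GGTGGCA bound by Rpn4, in capitals, at chrIV:1261448-1261567, plus strand.
RPT3: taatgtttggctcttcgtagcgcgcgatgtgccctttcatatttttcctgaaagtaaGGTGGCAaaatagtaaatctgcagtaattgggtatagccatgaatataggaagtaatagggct
This element was found in 27 of the 35 promoters of the list (77.1%) beside 4.55% of all 5647. The median log2 fold change was 0.56 over the members with it and 0.28 over those without.

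Arginine synthesis was the metabolic list with the highest median, 0.77. Of 10 genes, 7 were called higher and none lower. ARG4, argininosuccinate lyase, had 116 and 128 CPM in wild type and 609 and 622 CPM in the triple mutant, 5.03-fold more (log2 fold change 2.33 ± 0.08, adjusted p = 8.64e-08, edgeR). ARG7, which transfers the acetyl group to and from ornithine, went from 87.5 and 89.8 to 294 and 317 CPM, and ARG1, argininosuccinate synthetase, from 31.7 and 37.5 to 88.1 and 97.9 CPM. In each of these 3 genes both triple-mutant libraries were above both wild-type libraries. ARG2 and ARG8, other enzymes of the ornithine branch, stood at 0.00 and 0.04 on the log2 scale and were not called. ORT1, the mitochondrial ornithine carrier, rose by 0.79 and CPA1, of carbamoyl phosphate synthesis, by 0.75.

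The promoter of ARG4 is shown for TGACTCA, the element of Gcn4, in capitals, at chrVIII:141519-141638, minus strand.
ARG4: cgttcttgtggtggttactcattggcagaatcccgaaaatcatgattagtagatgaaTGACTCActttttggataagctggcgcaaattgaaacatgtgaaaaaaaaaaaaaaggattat
TGACTCA was present in 9 of 10 arginine promoters (median log2 fold change 0.79, and 0.00 for the gene without it), in 4.11% of all 5647, in 14.2% of those of genes called above 1 and in 4.55% of those called below -1. GCN4 mRNA itself stood at 856 and 846 CPM in wild type and 847 and 859 CPM in the triple mutant, a log2 fold change of 0.00 ± 0.07 (adjusted p = 0.97, edgeR). GCN4 is known to be controlled at translation, which was not measured here.

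Other amino acid genes moved in both directions. Of 45 genes outside the arginine and branched-chain lists, 25 were called higher and 6 lower, with a median of 0.26. LYS1, which makes lysine from saccharopine, had 70.6 and 71.8 CPM in wild type and 287 and 298 CPM in the triple mutant (4.11-fold). LYS2, aminoadipate reductase, went from 142 and 140.2 to 301 and 324 CPM. LYS20, homocitrate synthase, went from 316 and 272 to 820.2 and 866 CPM, but shares a near-identical stretch with its paralog, so its own count is uncertain. ARO9, an aromatic aminotransferase, rose 2.52-fold. GDH1, the NADP-dependent glutamate dehydrogenase, fell from 407 and 449.8 to 166 and 165 CPM, and ARO7, chorismate mutase, from 84.6 and 81.6 to 43.4 and 39.05 CPM.

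More leucine and branched-chain genes fell than rose. Of 12, 7 were called lower and 1, LEU4, higher, with 4 below -1 and a median of -0.37. LEU1, isopropylmalate isomerase of leucine synthesis, fell from 726 and 760.0 CPM in wild type to 119 and 135 CPM in the triple mutant, 5.86-fold (log2 fold change -2.55 ± 0.08, adjusted p = 5.85e-08, edgeR). OAC1, a mitochondrial carrier for oxaloacetate and isopropylmalate, fell from 166 and 161 to 29.9 and 31.2 CPM, 5.35-fold. BAT1, the mitochondrial branched-chain aminotransferase, fell from 908 and 967 to 311 and 302 CPM, and BAT2, its cytosolic counterpart, from 389 and 377 to 161 and 172 CPM. LEU3, the transcription factor of the pathway, was not called, with 75.98 and 75.99 CPM in wild type and 87.6 and 72.9 CPM in the triple mutant. The triple mutant carried the LEU2 marker at HEL2, whereas wild type was leu2∆0, so for LEU1, OAC1 and BAT1 the marker and the deletion cannot be told apart. BAT2 stood at 454 and 481 CPM in hel2∆, which carries the same marker, and at 162 and 158 CPM in ncs2∆elp6∆, which does not, and the triple mutant differed from ncs2∆elp6∆ by 0.06 ± 0.07 (adjusted p = 0.669, edgeR). URA1, dihydroorotate dehydrogenase of pyrimidine synthesis, fell from 769 and 777 to 138 and 143 CPM. The triple mutant carried URA3 where wild type was ura3∆0, so for URA1 too marker and deletion cannot be told apart.

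The palindromic element of Leu3, CCGG, any 2 bases and CCGG, is shown in capitals in 2 of these promoters, at chrVII:478805-478924, minus strand, and chrVIII:517312-517431, plus strand.
LEU1: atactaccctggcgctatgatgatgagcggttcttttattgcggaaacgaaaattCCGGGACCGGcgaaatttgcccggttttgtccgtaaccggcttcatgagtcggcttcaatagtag
BAT1: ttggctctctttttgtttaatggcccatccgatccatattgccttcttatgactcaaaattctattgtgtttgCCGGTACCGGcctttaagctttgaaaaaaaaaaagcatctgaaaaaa
It occurred in 15 of 5647 promoters (0.266%), of which 4 belong to this list of 12. The median log2 fold change of those 4 was -1.01 and that of the other 8 was -0.20. GDH1 also held 1 such element.

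Many genes of phosphate uptake and polyphosphate synthesis fell. Of 30, 15 were called lower, 7 of them below -1, and 1, PHM8, higher, with a median of -0.43. PHO84, the high-affinity phosphate transporter, fell from 539.7 and 566 CPM to 117 and 107 CPM, 4.92-fold (log2 fold change -2.30 ± 0.08, adjusted p = 6.77e-08, edgeR). SPL2, a regulator of the low-affinity transporters, fell from 67.5 and 52.1 to 8.13 and 8.42 CPM. VTC3, a subunit of the vacuolar polyphosphate polymerase, fell from 284 and 291 to 91.4 and 86.7 CPM, and VTC4 and VTC1 of the same complex had log2 fold changes of -1.01 and -0.83. PHO5, the secreted acid phosphatase, fell from 79.4 and 88.2 to 32.2 and 33.9 CPM. PHM6 was of low abundance and fell from 7.72 and 7.93 to 2.42 and 1.52 CPM, and PHO12, which fell from 5.53 and 3.96 to 0.369 and 0.846 CPM, has a near-identical copy. PHO4, the transcription factor of this regulon, had 92.5 and 103 CPM in wild type and 54.7 and 72.3 CPM in the triple mutant, and its call was lost when wild-type replicate 2 or triple-mutant replicate 1 was left out. PHO2 and PHO85 were not called.

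The palindrome CACGTG, to which Pho4 binds and Cbf1 binds as well, is given in capitals in 2 promoters, at chrXIII:26163-26282, minus strand, and chrXVI:517284-517403, minus strand.
PHO84: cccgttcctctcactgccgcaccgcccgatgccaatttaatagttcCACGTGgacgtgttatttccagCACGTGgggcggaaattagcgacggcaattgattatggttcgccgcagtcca
VTC3: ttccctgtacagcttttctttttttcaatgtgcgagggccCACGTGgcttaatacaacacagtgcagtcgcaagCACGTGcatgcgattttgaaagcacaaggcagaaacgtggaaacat
It was found in 17 of the 30 promoters (56.7%) and in 6.25% of all 5647. Members with it had a median log2 fold change of -0.83 and members without it -0.10. Among genes called below -1 the share was 13.6%, and among those called above 1 it was 5.83%.

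More genes of glycolysis fell than rose. Of 21 genes of glycolysis and fermentation, 12 were called lower and 1, PDC6, higher, with a median of -0.43. TDH1, a glyceraldehyde-3-phosphate dehydrogenase, fell from 100.4 and 144 CPM to 26.4 and 32.1 CPM (4.17-fold), and TDH2 from 2005 and 2317 to 640.4 and 811 CPM. TDH2 has a near-identical copy, TDH3, which was not called (-0.27), so the split of reads between the 2 is uncertain. FBA1, aldolase, at 12840 and 13060 CPM in wild type, was at 8848 and 9441 CPM in the triple mutant, and GPM1, phosphoglycerate mutase, went from 6935 and 7369 to 5332 and 5227 CPM. These 2 had the largest losses of CPM per kilobase of coding sequence among called genes. The call of FBA1 was lost without triple-mutant replicate 1, and that of GPM1 when any of 3 single libraries was left out (wild-type replicate 2 or either triple-mutant replicate). The kinases HXK1 and HXK2 stood at -0.73 and -0.70 and PGK1 at -0.75. PDC6, a minor pyruvate decarboxylase, went from 1.77 and 2.10 to 4.47 and 5.42 CPM. HXT4, a hexose transporter, fell from 101 and 124 to 14.9 and 14.4 CPM (7.70-fold). The list of 22 transporters and sensors had 3 called higher (13.6%) and 4 lower (18.2%). Among genes of gluconeogenesis and fat use, MDH2 fell from 131 and 148 to 61.98 and 69.9 CPM, and PCK1 rose from 9.13 and 9.79 to 19.9 and 19.7 CPM.

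Cell wall and surface genes divided by family. Of 21 cell wall integrity genes, 13 were called higher and none lower, with a median of 0.40. SLT2, the MAP kinase of the pathway, had 71.2 and 78.1 CPM in wild type and 216 and 213 CPM in the triple mutant (2.87-fold, adjusted p = 1.92e-06, edgeR), and KDX1, a kinase-like protein induced by Slt2 signalling, went from 18.04 and 18.03 to 59.2 and 64.7 CPM. PIR3, a wall glycoprotein, went from 7.61 and 12.04 to 30.04 and 33.00 CPM, and SED1, the major wall protein of stressed cells, from 1522 and 2166 to 3808 and 3521 CPM. RLM1, the transcription factor below Slt2, rose by 0.44 on the log2 scale. Of 8 TIR and DAN mannoproteins, known from cold and anaerobic growth, 3 were called lower and none higher. TIR1 fell from 63.3 and 99.9 to 9.60 and 8.63 CPM, with wild-type replicates that themselves differed, TIR3 from 24.5 and 37.4 to 10.3 and 13.8 CPM, and DAN1 from 58 and 82 counts to 5 and 14. WSC4, a wall stress sensor, fell from 63.8 and 77.4 to 12.7 and 15.2 CPM, and MRH1, a plasma membrane protein related to Hsp30, from 1043 and 1222 to 236 and 281 CPM.

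More mating genes fell than rose. Of 36, 18 were called lower and 2 higher, and the median was -0.41. AGA1, the anchor of the agglutinin, fell from 106 and 127 CPM to 31.3 and 34.95 CPM, BAR1, the protease that degrades alpha factor, from 288 and 348 to 142 and 148 CPM, and FUS1, a cell fusion protein, from 53.3 and 48.5 to 25.7 and 23.4 CPM. ASG7, a regulator of pheromone signalling in a cells, fell from 21.4 and 22.3 to 10.5 and 8.46 CPM. STE12, the transcription factor of the response, had a log2 fold change of -0.49. PRM5 rose from 41.2 and 39.9 to 101 and 99.8 CPM and STE11 by 0.57. PRM6 dropped to 0 and 2 counts in the triple mutant, from 13 and 30, and its call was lost without triple-mutant replicate 1. The precursor genes of a-factor, MFA1 and MFA2, stood at 1.00 and 0.32 and were not called. Of 49 genes of meiosis and sporulation 4 were called higher (8.16%) and 8 lower (16.3%), beside 14.9% each way over all genes. Their median of -0.10 turned to 0.03 with the GC offset. NDJ1, a meiotic telomere protein, had the largest fall of the well-measured genes, from 23.7 and 24.7 to 2.01 and 1.78 CPM (log2 fold change -3.67 ± 0.21, adjusted p = 2.39e-06, edgeR). SPO1, a meiotic phospholipase, fell from 18.3 and 17.9 to 7.84 and 7.62 CPM, and MER1, a meiotic splicing factor, from 8.66 and 16.1 to 4.68 and 5.58 CPM. DIT1, of spore wall synthesis, rose from 4.80 and 6.61 to 11.8 and 11.8 CPM. The call of MER1 was lost when any of 3 single libraries was left out. SPO19 was called higher on 7 and 11 counts against 0 and 0, and that call was lost when any single library was left out.

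**Figure D2:**
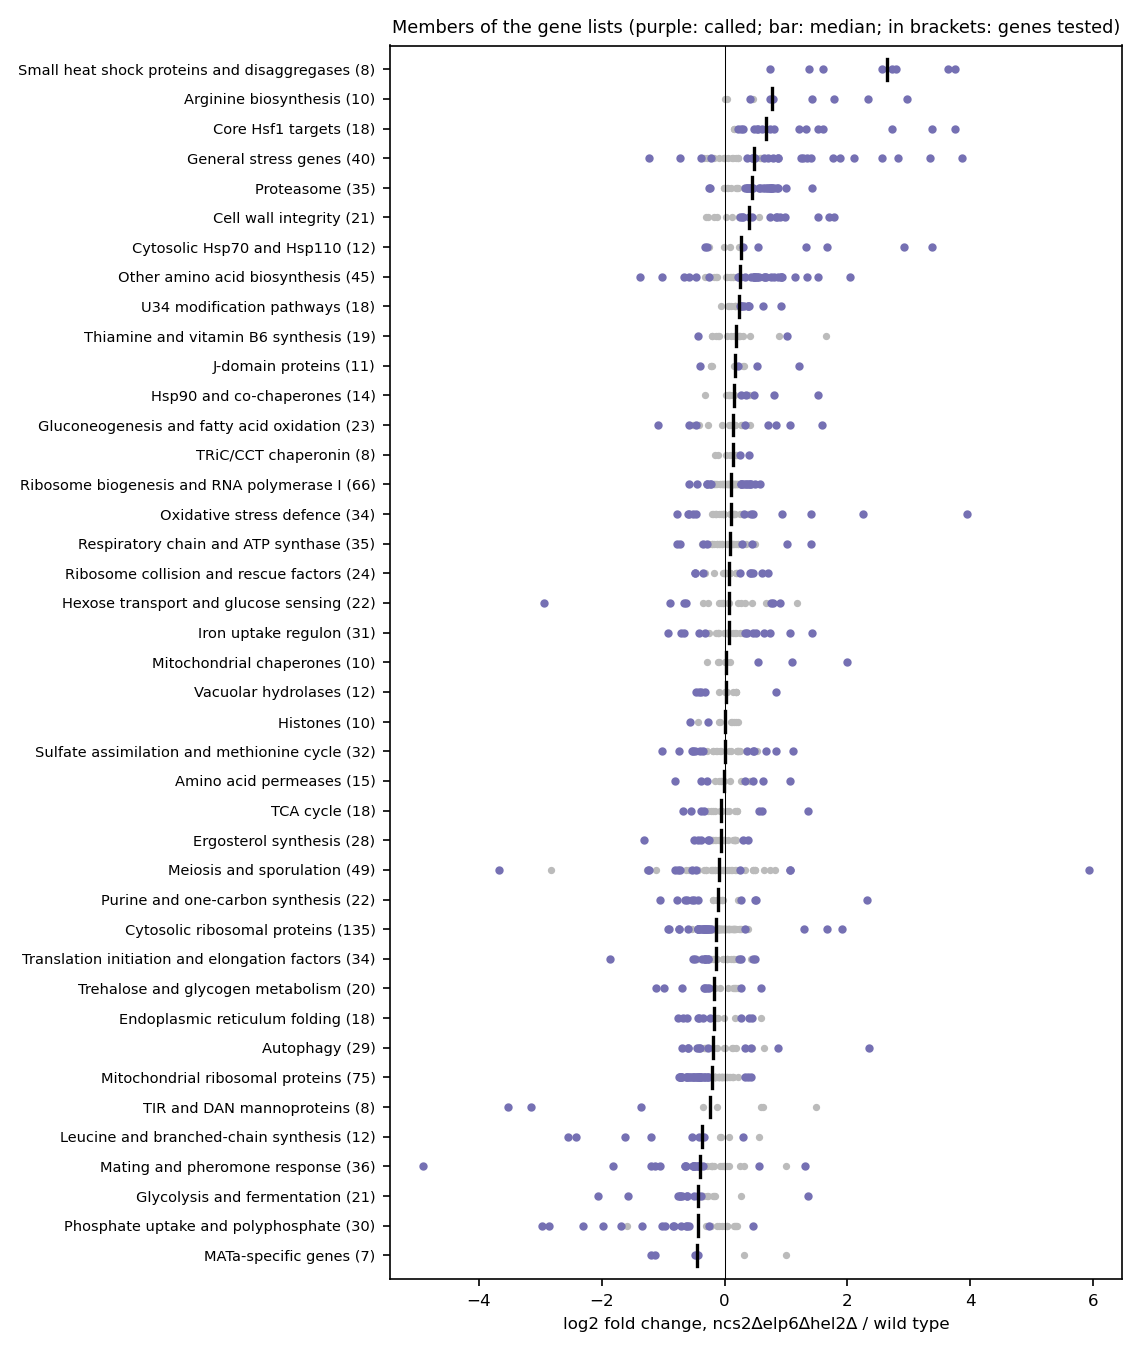
Log2 fold change in ncs2∆elp6∆hel2∆ against wild type of the members of 41 gene lists, ordered by median. Each point is a gene (purple where called), the black bar is the median of the list and the number tested is in brackets; MET17 is left out. The small heat shock protein list stands highest at 2.65, and the MATa, phosphate, glycolysis and mating lists lie lowest, between -0.46 and -0.41.

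Translation lists had small median shifts. Of 135 cytosolic ribosomal protein genes, 4 were called higher (2.96%) and 22 lower (16.3%), with a median of -0.13. Over all genes tested, 14.9% were called each way. The 26 calls became 6 to 60 over the alternative settings and exclusions. RPS14B, a ribosomal protein gene under feedback by its own product, was the exception of high abundance, with 353 and 311 CPM in wild type and 1020 and 1080 CPM in the triple mutant (3.16-fold). RPL41A and RPL41B, whose short coding sequences are nearly alike, were called on triple-mutant replicates that disagreed, 42.03 and 12.9 CPM for RPL41A and 112 and 39.5 CPM for RPL41B, and both calls were lost with DESeq2 and without wild-type replicate 1 or triple-mutant replicate 1. Mitochondrial ribosomal protein genes had 3 called higher (4.0%) and 28 lower (37.3%) of 75, and none passed 1 (median -0.20). MRPS8 and MRPL39, proteins of the small and large mitochondrial subunits, had the largest falls, with log2 fold changes of -0.74 ± 0.12 and -0.73 ± 0.09. Of 66 genes of ribosome biogenesis, 11 were called higher (16.7%) and 6 lower (9.09%). UTP18 stood at 0.58 ± 0.08 and KRR1 at -0.58 ± 0.15, both factors of the small subunit processome. The call of KRR1 was lost when any of 3 single libraries was left out (wild-type replicate 1 or either triple-mutant replicate). Of 34 translation factors, 4 were higher (11.8%) and 9 lower (26.5%). ANB1, the eIF5A gene expressed without oxygen, fell from 14.9 and 17.6 to 4.35 and 4.53 CPM. Of the 18 remaining genes of the U34 modification pathways, 9 were called higher and none lower, with a median of 0.24. IKI1, the Elongator subunit Elp5, had 61.6 and 58.4 CPM in wild type and 117 and 110.2 CPM in the triple mutant, and UBA4, which activates Urm1, went from 82.4 and 72.6 to 120.3 and 119 CPM. Of 24 collision and rescue factors, 6 were higher and 3 lower. The largest rises there were UFD1, a cofactor of Cdc48, by 0.70, and MBF1, which acts at collided ribosomes, by 0.61.

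The remaining lists held isolated changes. Over all genes tested, 14.9% were called each way. IMD2, an IMP dehydrogenase of guanine synthesis, rose from 30.8 and 39.8 to 164 and 185 CPM. ADE1 fell from 329.7 and 333 to 165 and 154 CPM. Of 22 purine and one-carbon genes 4 were higher (18.2%) and 7 lower (31.8%). Of 32 sulfate and methionine genes other than MET17, 6 were higher (18.8%) and 7 lower (21.9%). MUP3, a methionine permease, went from 17.7 and 20.8 to 40.3 and 42.9 CPM, and MET6, methionine synthase, from 384 and 349 to 179 and 183 CPM. Wild type lacked MET17 transcripts, so these values compare strains that differ in sulfur assimilation as well. Of 31 iron genes, ISU1, an iron-sulfur cluster scaffold, rose 2.69-fold and HMX1, heme oxygenase, 2.08-fold. ERG28 of ergosterol synthesis fell from 59.4 and 68.9 to 23.9 and 27.5 CPM, with 6 of 28 genes of that pathway lower (21.4%) and 2 higher (7.14%). NDE1, an external NADH dehydrogenase of mitochondria, rose from 230.1 and 226 to 481 and 443 CPM, and ICY2 from 11.6 and 9.71 to 59.1 and 50.8 CPM. CYC7, the cytochrome c isoform of low oxygen, rose from 4.33 and 3.65 to 11.04 and 10.2 CPM, SFC1, a mitochondrial succinate-fumarate carrier, from 1.93 and 1.48 to 6.03 and 4.40 CPM, and THI4 of thiazole synthesis from 3.86 and 5.28 to 10.3 and 7.91 CPM. PUT4, the proline permease, rose from 4.85 and 5.52 to 10.8 and 10.7 CPM. These 4 genes are of low abundance, and the calls of SFC1 and THI4 were lost when triple-mutant replicate 1 was left out, that of THI4 also without wild-type replicate 1. Of 35 genes of the respiratory chain 4 were higher and 4 lower, of 18 of the TCA cycle 3 and 4, of 19 of thiamine and vitamin B6 synthesis 1 and 1, and of 15 amino acid permeases 4 and 3. Of 29 autophagy genes 4 were higher (13.8%) and 7 lower (24.1%), and of 12 vacuolar hydrolases 1 (8.33%) and 4 (33.3%). PRB1, vacuolar protease B, rose from 113 and 133 to 212 and 228 CPM. Of 10 histone genes 2 were called lower, HTZ1 and HHO1, with log2 fold changes of -0.56 ± 0.09 and -0.26 ± 0.08, and the second call was lost in 5 of 11 alternatives.

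Transcripts of 18 regulators were examined whether or not they changed, and 9 were called higher and 2 lower. Besides RPN4, XBP1, a stress-induced repressor, passed 1, with 19.3 and 23.00 CPM in wild type and 54.2 and 48.2 CPM in the triple mutant. MSN4 rose from 75.6 and 83.1 to 157 and 140.2 CPM, while MSN2, its partner, stood at 99.4 and 99.7 CPM in wild type and 95.2 and 97.5 CPM in the triple mutant and was not called. YAP1, of the oxidative stress response, had a log2 fold change of 0.67 ± 0.09, USV1 of 0.79 ± 0.14 and ROX1, a repressor of hypoxic genes, of 0.55 ± 0.09. HSF1 had 110.4 and 91.5 CPM in wild type and 128 and 135 CPM in the triple mutant, a log2 fold change of 0.38 ± 0.10 whose call was lost when any of 3 single libraries was left out. HAP4, the regulatory subunit of the respiratory activator, fell by 0.39. HAC1, SKN7, AFT1 and UPC2 were not called.

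The same genes were then placed beside hel2∆ and ncs2∆elp6∆. The triple mutant and ncs2∆elp6∆ shared the markers HIS3MX and URA3, which were not listed for hel2∆ or wild type. MET17 divided the strains in the same way, with 4321 and 5084 counts in ncs2∆elp6∆ and 0 in both hel2∆ libraries. Between these pairs of strains, loss of U34 modification, marker and MET17 cannot be told apart. The triple mutant differed from ncs2∆elp6∆ in 422 genes (6.93%), 171 higher (2.81%) and 251 lower (4.12%), and from hel2∆ in 1754 (28.8%), 917 higher (15.1%) and 837 lower (13.8%). With library totals the latter were 1389 higher and 521 lower, and 904 were called without triple-mutant replicate 1 and 1061 without hel2∆ replicate 2. The count against ncs2∆elp6∆ was unstable, and the cause was not tested. With an offset for the GC content of each library, an alternative added after seeing the data, the count was 164 of 5647 genes, 110 higher and 54 lower, beside 414 of the same genes without the offset. Leaving out triple-mutant replicate 1 gave 72 genes and leaving out replicate 2 gave 179, while leaving out ncs2∆elp6∆ replicate 1 or 2, also added after seeing the data, gave 72 and 69. The total change kept 1599 of its called genes among 2074 called with the GC offset. The departure from additivity is the log2 change from ncs2∆elp6∆ to the triple mutant, less the log2 change from wild type to hel2∆. It was called for 69 genes (1.13%), 59 positive (0.969%) and 10 negative (0.164%). It was called for 42 genes without triple-mutant replicate 1, for 43 and 40 without ncs2∆elp6∆ replicate 1 and 2, and for 140 without hel2∆ replicate 1. These comparisons share the triple-mutant libraries, so their values are given side by side.

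**Figure D3:**
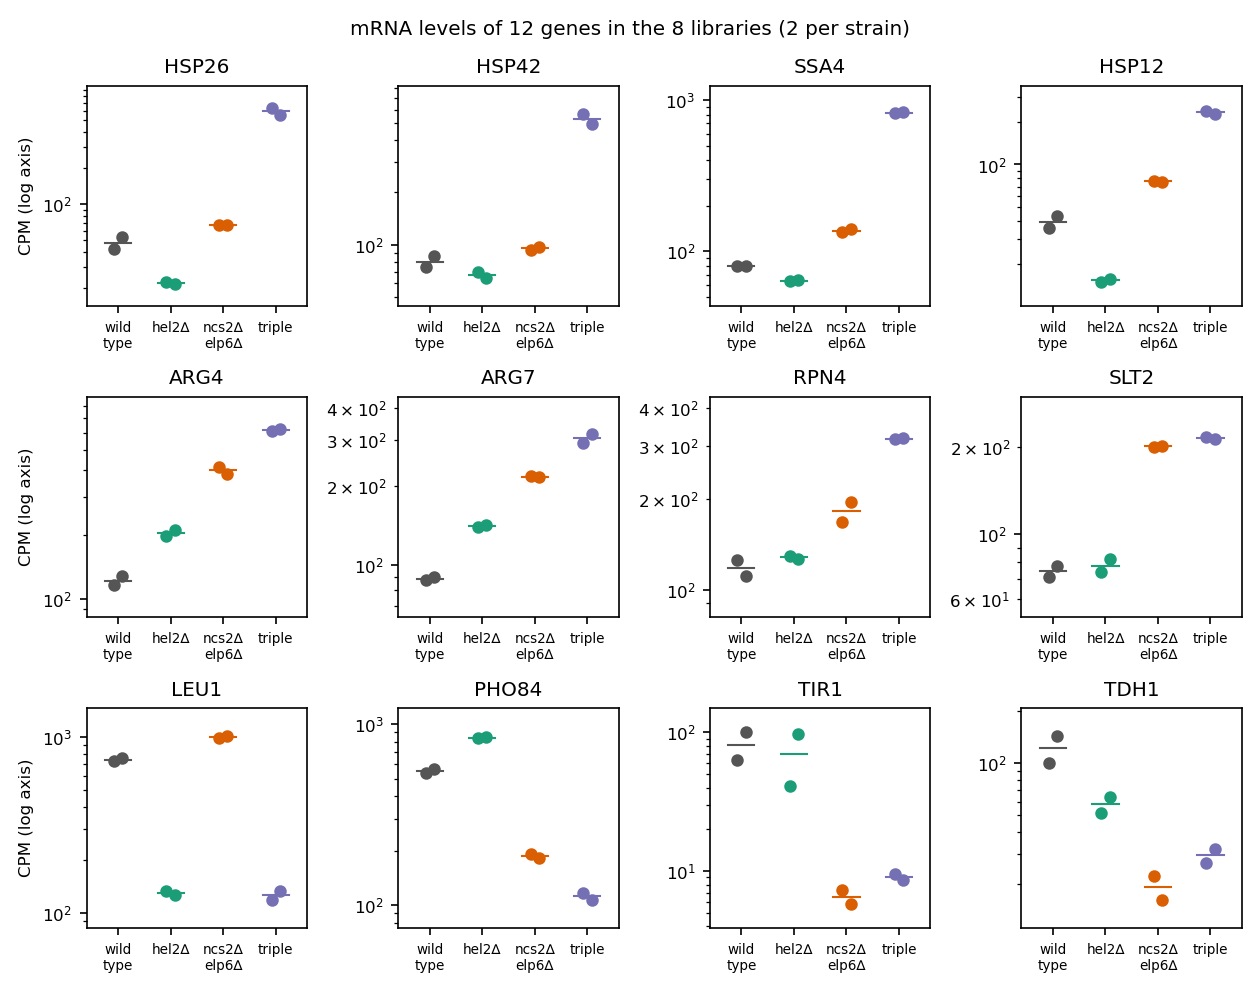
mRNA levels of 12 genes in each of the 8 libraries. The y axis is CPM on a log axis with its own range in each panel, points are libraries and bars are the mean of the 2 libraries of a strain (wild type, hel2∆, ncs2∆elp6∆ and the triple mutant). HSP26 and HSP42 rise chiefly in the triple mutant, ARG4 and ARG7 step upward through all 4 strains, SLT2 is level between ncs2∆elp6∆ and the triple mutant, and LEU1 is low in both strains without HEL2.

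In the first pattern the triple mutant exceeded both partial mutants. HSP26 had 22.6 and 21.7 CPM in hel2∆ and 67.4 and 67.2 CPM in ncs2∆elp6∆, so that hel2∆ lay below wild type, ncs2∆elp6∆ above it and the triple mutant far above all 3. Its departure from additivity was 4.24 ± 0.16 on the log2 scale (adjusted p = 8.82e-07, edgeR). HSP12 had 15.03 and 15.6 CPM in hel2∆ and 76.8 and 75.2 CPM in ncs2∆elp6∆, with a departure of 2.98 ± 0.14. SSA4 had 63.8 and 63.97 CPM in hel2∆ and 133 and 140.2 CPM in ncs2∆elp6∆ and a departure of 2.91 ± 0.10. DDR2 had 6.92 and 10.8 CPM in hel2∆ and 15.8 and 12.6 CPM in ncs2∆elp6∆, levels within or below the range of wild type, and a departure of 3.72 ± 0.34. SSE2 had 39.9 and 46.05 CPM in ncs2∆elp6∆, less than in wild type, and rose 2.28 ± 0.09 on the log2 scale between ncs2∆elp6∆ and the triple mutant. HSP104, HSP82, HSP78, APJ1 and MDJ1 had smaller positive departures, from 0.54 for MDJ1 to 1.27 for HSP104. RPN4 had 129 and 126 CPM in hel2∆ and 168 and 196 CPM in ncs2∆elp6∆, and its departure was 0.69 ± 0.13. The proteasome list as a whole was not higher in the triple mutant than in ncs2∆elp6∆. Its median log2 fold change against wild type was 0.46 in ncs2∆elp6∆, 0.45 in the triple mutant and 0.03 in hel2∆. SRX1 had 0.988 and 2.33 CPM in hel2∆ and 3.66 and 2.97 CPM in ncs2∆elp6∆, and its departure of 2.52 ± 0.72 was not called (adjusted p = 0.178, edgeR).

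In the second pattern both partial mutants lay on the same side of wild type as the triple mutant. These strains also differed from wild type in markers, so which difference moved the genes was not tested. ARG4 had 197 and 210.3 CPM in hel2∆ and 415 and 384 CPM in ncs2∆elp6∆, between wild type and triple mutant. ARG7 had 139.7 and 143 CPM in hel2∆ and 219 and 218 CPM in ncs2∆elp6∆. Both had departures of -0.11 ± 0.11 and -0.18 ± 0.10 that were not called. LYS1 had 90.8 and 97.6 CPM in hel2∆ and 242 and 227 CPM in ncs2∆elp6∆. Its change in hel2∆ against wild type, 0.40 ± 0.08 on the log2 scale, was not called (adjusted p = 0.0665, edgeR). In these 3 genes every library of the triple mutant lay above every library of the other strains.

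In the third pattern the triple mutant stayed near ncs2∆elp6∆, with which it shared the HIS3MX and URA3 markers and MET17 transcripts. SLT2 had 199 and 202 CPM in ncs2∆elp6∆ and differed from it by 0.10 ± 0.08 in the triple mutant. KDX1 differed by -0.06 ± 0.10, IMD2 by 0.08 ± 0.11, RPS14B by 0.12 ± 0.10, NDJ1 by -0.27 ± 0.24 and TIR1 by 0.49 ± 0.43, none of which was called. An interval of 2 standard errors around these differences is wide for TIR1 and narrow for SLT2, so that small differences could remain unseen. MRH1 had 166 and 157 CPM in ncs2∆elp6∆ and was higher in the triple mutant by 0.68 ± 0.11 (adjusted p = 0.0103, edgeR). WSC4 had 9.25 and 8.99 CPM in ncs2∆elp6∆ and was also higher in the triple mutant, by 0.61 ± 0.14 (adjusted p = 0.0373, edgeR). TDH1 had 22.3 and 16.1 CPM in ncs2∆elp6∆. The departures of WSC4 and TDH1, 1.07 ± 0.19 and 1.69 ± 0.29, were called positive. URA1 had 183 and 179 CPM in ncs2∆elp6∆ and 672 and 719.8 in hel2∆. Its level was thus low in both strains that lacked NCS2 and ELP6 and carried URA3, HIS3MX and MET17 transcripts. These differences cannot be told apart. URA1 was lower still in the triple mutant than in ncs2∆elp6∆, at a difference of -0.36 ± 0.07.

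In the fourth pattern the triple mutant stood at the level of hel2∆. LEU1 had 134 and 128 CPM in hel2∆ and 982 and 1005 CPM in ncs2∆elp6∆, and the triple mutant differed from hel2∆ by -0.04 ± 0.08 (adjusted p = 0.722, edgeR). BAT1 had 296 and 271 CPM in hel2∆ and differed from it by 0.11 ± 0.08. OAC1 had 40.7 and 40.8 CPM and GDH1 216 and 191 CPM in hel2∆, and the triple mutant was lower still, at differences of -0.41 ± 0.07 and -0.30 ± 0.09. All 4 genes were low in both strains with the LEU2 marker at HEL2 and higher in both without it. PHO84 and VTC3 moved in opposite ways in the partial mutants. PHO84 had 834 and 851 CPM in hel2∆, above wild type, and 192 and 182 CPM in ncs2∆elp6∆, below it, and its departure of -1.35 ± 0.11 was called. VTC3 had 414 and 423 CPM in hel2∆ and 124 and 136 CPM in ncs2∆elp6∆, with a departure of -1.09 ± 0.11.

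**Figure D4:**
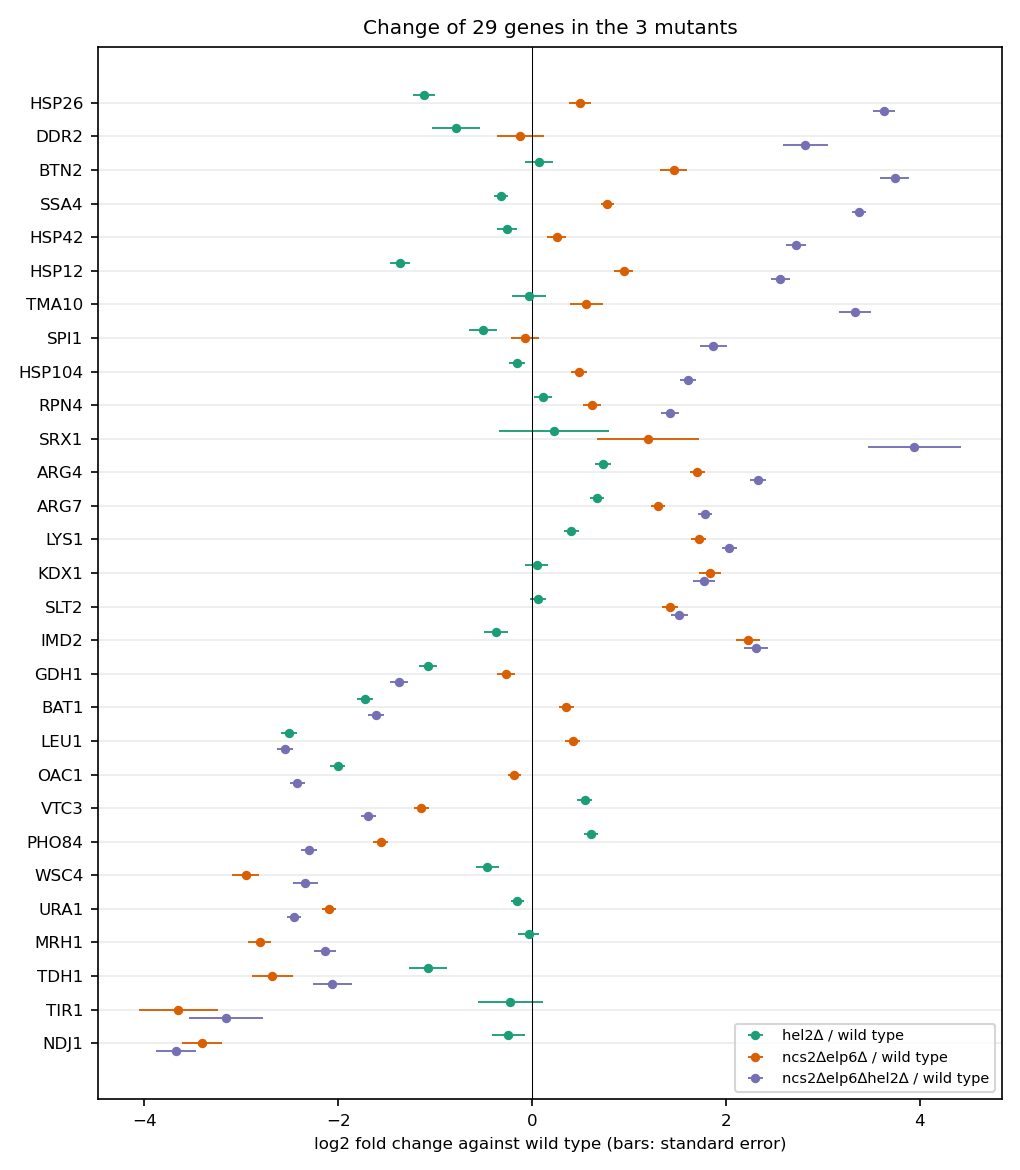
Log2 fold change against wild type of 29 genes in hel2∆, ncs2∆elp6∆ and the triple mutant, with bars for the standard error (2 libraries per strain). The first 11 genes have their largest value in the triple mutant, KDX1, SLT2 and IMD2 have nearly the same value in ncs2∆elp6∆ and the triple mutant, and BAT1 and LEU1 have nearly the same value in hel2∆ and the triple mutant. The 3 mutants were set against the same wild-type libraries.

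Across genes, the change in the triple mutant varied with the GC content of the coding sequence, in the direction of the library tilt given above. It varied little with the share of AAA, CAA and GAA codons. In the quintile of genes with the lowest GC content (median 36.2%), 5.49% were called higher and 20.8% lower, with a median log2 fold change of -0.14. In the fourth quintile (41.6%) 24.4% were higher and 14.6% lower, with a median of 0.08. Spearman's rho across 5647 genes was 0.191 with GC content and 0.003 with coding length, and these genes share the 4 libraries and are not replicates. The share of AAA, CAA and GAA codons, which the paper counts among those dependent on U34 modification, had a rho of -0.018. From the lowest quintile of that share to the highest the median change went from 0.00 to -0.01, the share called higher from 15.8% to 11.8% and the share called lower from 13.4% to 16.4%. The 2 properties are tied, with a rho of -0.403. With the GC offset the medians of these codon quintiles ran from -0.07 to 0.03. AAA, CAA and GAA do not cover all that the paper ties to U34 modification, which also includes G-ending codons and codon pairs. G-ending codons were not tested. The frequency of selected codon pairs had a rho of 0.004 and that of CGA codons, common in the paper's slow pairs, 0.056. Across CGA quintiles, lowest to highest, genes called lower went from 20.5% to 11.2% and genes called higher from 14.5% to 12.4%. The cause was not tested.

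**Figure D5:**
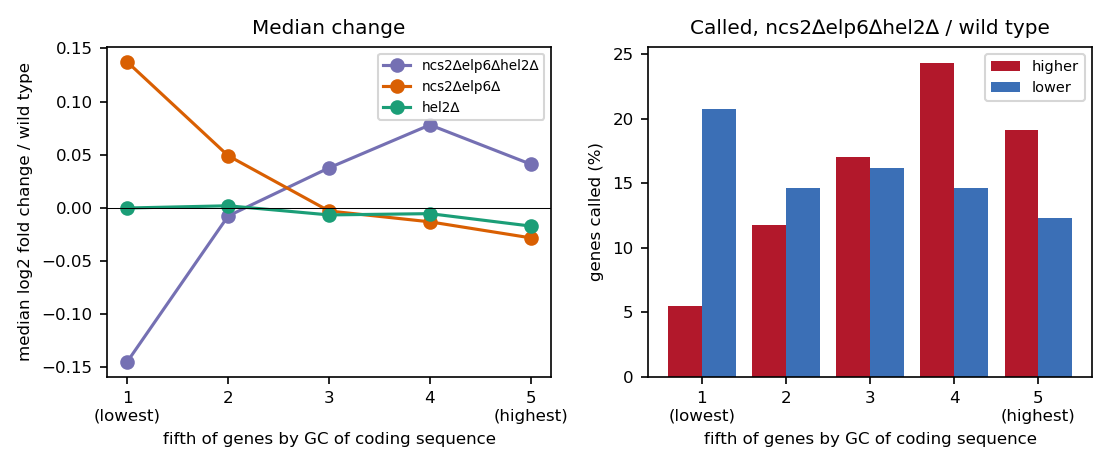
Change by GC content of the coding sequence. The left panel gives the median log2 fold change against wild type of each quintile of genes (x axis, lowest to highest GC) for the 3 mutants, and the right panel the percentage of genes called higher and lower in the triple mutant. The triple mutant runs from -0.14 in the first quintile to 0.08 in the fourth, and ncs2∆elp6∆ runs the other way, from 0.14 to -0.03.

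By position, the 58 tested genes within 10 kb of a chromosome end had a median of 0.18 and 24.1% called higher against 3.45% lower, beside 15.4% and 16.1% of the 5063 genes more than 50 kb from an end. The 16 chromosomes had medians between -0.07 (X) and 0.08 (VI), a narrow span beside the changes of single genes. Gene lists that the study used, taken as membership only, gave small median shifts. Of 137 genes listed as RQC targets from reads of collided ribosomes, 21 were called higher and 28 lower, with a median of -0.03, and of 188 listed as refractory to RQC by the same reads 47 were higher and 39 lower, with a median of 0.03, both medians of a sign that turned under at least 1 alternative setting. The study assigns the sizes of this pair of lists to opposite names in different places, so the names may be exchanged. Of 600 genes for aggregation-prone proteins 145 were higher (24.2%) and 75 lower (12.5%), with a median of 0.06. Of 383 for non-aggregating proteins 32 were higher (8.36%) and 116 lower (30.3%), with a median of -0.14. The study chose the RQC lists on its own reads of these strains. It took the aggregation lists from earlier proteomics of aggregates in ncs2∆elp6∆ and wild type. Since all these lists rest on genotypes measured here, they are not independent evidence of a direction.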

How the data were processed

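Poly(A) RNA of 4 strains, 2 libraries each, was prepared with a stranded kit and sequenced. Per the labels and the study's methods, reads were mapped to coding sequences without adaptor trimming. The submitters' processing notes name Bowtie and sacCer3. The counting program, the annotation release, the strand setting and the treatment of reads with several matches are not given in the sources used here, so counts of near-identical copies are uncertain. The deposited file holds the authors' whole-number counts per gene, with no normalization, and all 8 of its columns were matched to samples by their names. Totals ran from 13252947 to 23941037 per library. LEU2 and URA3 were not analysed here, and the values of 2 genes that the rule below names are not reported here.

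Counts were analysed in R 4.3.3 with edgeR 4.0.16: genes were kept by filterByExpr (6087 of 6337), scaled by TMM and fitted with a mean per strain over all 8 libraries, and quasi-likelihood F tests gave p-values adjusted by Benjamini-Hochberg over all genes tested. Called means an adjusted p under 0.05. Each standard error was obtained as |log2 fold change| over the root of its F statistic. Fold changes rest on the fitted means, and no fold is given where a strain held at most 3 counts per library. With 2 libraries against 2, an exact permutation test of a single gene cannot go below p = 0.333, so only the fit across all genes was used. The scripts were tested on simulated counts. The members and gene lists were chosen with earlier results of these data known, and motif searches covered 500 bases before the coding start of RefSeq R64 genes (5804 of 6337 matched by identifier). Near-identical copies had at least 95% identity over at least 100 nt of coding sequence (BLAST 2.17.0).

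Named genes were the 12 highest and 12 lowest called genes with a mean of at least 5 CPM, no copy and separate libraries, up to 6 called members past a log2 fold change of 1 from each of 43 lists (or up to 2 called members where none passed), the 18 regulators, the deleted and marker genes, and the 5 largest gains and losses of CPM per kb. Other members of a list named in the text were chosen after their values were seen. Alternatives were other scalings (RLE, library totals), no filter on low counts, DESeq2 1.42.0, a fit of only the strains compared, a replicate block, leaving out each wild-type and triple-mutant library and, added after seeing the data, a GC offset and, for counts of calls, leaving out each hel2∆ and ncs2∆elp6∆ library.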

Additional observations from a re-analysis of the deposited data

Results flagged for a closer look

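For 25 named genes the change with loss of HEL2 differed between cells lacking NCS2 and ELP6 and otherwise wild-type cells, by edgeR's test of that difference. These backgrounds also differed in MET17 transcripts and in the markers HIS3MX and URA3. The values are the log2 change without U34 modification less the log2 change with it, and adjusted p-values over the 6087 genes tested ran from 6.71e-07 (SSA4) to 0.0454 (MDJ1).

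Among chaperones, sequestrases and other heat shock proteins the difference was 4.24 for HSP26, 2.98 for HSP12, 2.91 for SSA4 and 2.73 for HSP42. It was 2.34 for SSE2, 2.21 for BTN2, 2.15 for SSA3 and 2.04 for HSP30. It was 1.27 for HSP104, 1.07 for HSP78, 0.89 for HSP82, 0.88 for APJ1 and 0.54 for MDJ1. Among stress genes it was 3.72 for DDR2, 2.80 for TMA10, 2.69 for OYE3, 2.61 for ROQ1, 2.45 for SPI1, 1.41 for CTT1 and 1.41 for XBP1. RPN4 stood at 0.69, WSC4 at 1.07 and TDH1 at 1.69. PHO84, at -1.35, and VTC3, at -1.09, had negative differences. The 4 strains have 2 libraries each, and the triple-mutant libraries and ncs2∆elp6∆ replicate 2 were tilted in GC content. With the GC offset 71 of 5647 genes were called, 59 of them among the 69 called without it.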

How the results depend on the processing

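The total change was called for 1766 to 1823 genes under RLE scaling, library totals, no filter on low counts and DESeq2, for 1607 with only the strains compared and for 2074 of 5647 with the GC offset. Leaving out any 1 of the 8 libraries gave 873 to 1887 (the 4 exclusions of hel2∆ and ncs2∆elp6∆ libraries were added after seeing the data). The triple mutant against ncs2∆elp6∆ was the least stable comparison: 422 genes became 653 with DESeq2, 869 with only the strains compared, 164 with the GC offset and 69 to 587 with 1 library left out. Against hel2∆ leaving out 1 library gave 904 to 1840 genes. The departure from additivity was called for 153 genes with DESeq2 in place of 69 and for 40 to 140 with 1 library left out. With library totals the split of the total change moved from 910 higher and 910 lower to 1071 and 695, and that against hel2∆ from 917 and 837 to 1389 and 521. The causes of these shifts were not tested.

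The median of the respiratory chain list, 0.09, was -0.01 without wild-type replicate 1, and the median of the meiosis list, -0.10, was 0.03 with the GC offset. Of the other lists, 8 with medians between -0.06 and 0.03 also crossed 0 in at least 1 setting: mitochondrial chaperones, sulfate assimilation, permeases, ergosterol, histones, vacuolar hydrolases, RQC targets and RQC-refractory transcripts. Of 137 named genes none reversed, and between 0 and 21 lost a call in any of the 11 settings run for them, with 21 lost without triple-mutant replicate 1.

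With the replicate number as a block, 1952 genes were called in the total change, 663 against ncs2∆elp6∆, 1890 against hel2∆ and 119 for the departure from additivity. The numbers do not pair the samples by any label, and same-numbered deviations correlated at 0.48 between wild type and hel2∆, at 0.08 between wild type and triple mutant, at -0.21 between triple mutant and ncs2∆elp6∆ at 0.12 between triple mutant and hel2∆ and at -0.12 in the remaining 2 pairs of strains. Among the depth limits, genes with a mean near 1 CPM, such as PRM6, SPO19 and DAN1, rest on few counts.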
